A study of Mus musculus with 20 samples.

Results

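Expression of the Myc network and of the D-type cyclins with their kinases was examined in colon RNA from 20 mice. The 10 genes were taken by name (Myc, Mycl, Max, Mxd1, Mxi1, Ccnd1, Ccnd2, Ccnd3, Cdk4 and Cdk6) out of 32991 genes with a value, and all 10 were found. For each gene and mouse, the deposited FPKM (fragment counts scaled to transcript length and library size) of its Ensembl transcripts were summed. The libraries came from male C57BL/6 mice in 4 groups of 5. Control mice received double distilled water by gavage for 91 days, and PZH mice received Pien Tze Huang, a traditional Chinese medicine, at 250 mg/kg/d over the same time. Model mice were given the carcinogen azoxymethane (AOM, 12.5 mg/kg) followed by cycles of 2% dextran sulfate sodium (DSS), which together induce inflammation and tumours in the colon, and water by gavage. Model + PZH mice received AOM, DSS and the same dose of Pien Tze Huang. The mice carried no engineered allele, each mouse gave 1 library, and the labels do not say how much tumour each piece of colon held. Age at the start and sequencing batches are not given in the labels.

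Myc is a transcription factor that promotes growth and cell division, and in the intestine it is a known target of Wnt and beta-catenin signalling. It binds DNA at the E-box CACGTG as a pair with Max. Mxd1 and Mxi1 also pair with Max and repress genes with such sites, and Mxd1 is known to be high in differentiated cells. The D-type cyclins encoded by Ccnd1, Ccnd2 and Ccnd3 activate the kinases Cdk4 and Cdk6, which phosphorylate the retinoblastoma protein and thereby release E2F factors at entry into S phase. The study stained colon sections for the proteins of Myc and Ccnd1, and the transcripts of both genes therefore bear on the same question at the level of RNA.

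The depth of the libraries, read from the steps of the low FPKM values, was 15.3 to 19.4 M fragments per mouse. No pair among the 190 pairs of mice had identical values. The number of fragments behind each gene varied widely: Mxd1 rested on an estimated 4510 to 14189 fragments per mouse, Ccnd2 on 3542 to 8120 and Ccnd1 on 516 to 4483, but Cdk6 on 6 to 92. The label naming colon as the tissue was checked against 7 colon genes, which summed to 1720 to 4310 FPKM in every mouse, none of them being at 0 throughout. Markers of several cell types differed between groups. At an adjusted P under 0.05 in limma, 23.6% of all genes were called in Model against Control, and 16.4% were called higher. Of the markers, 5 of 5 smooth muscle and 4 of 7 colon ones were lower in the Model group. Higher were 6 of 12 proliferation, 3 of 3 tested neutrophil and 4 of 7 T cell markers. The same held for 2 of 5 B cell and 3 of 5 macrophage and monocyte markers. Fibroblast markers went both ways (2 of 6 higher, 1 lower). Of 6 tested epithelium markers 1 was lower, and of 4 endothelium markers 1 was higher. None of 3 tested squamous epithelium markers was called. The neutrophil marker Cxcr2 passed the filter for low genes by the Model mice alone (0.0986 FPKM in Control, 3.52 in Model). Summed neutrophil markers ranged from 0.103 to 29.6 FPKM in Control, from 0.0925 to 8.98 in PZH, from 87.0 to 494 in Model and from 2.86 to 251 in Model + PZH mice. Summed smooth muscle markers ranged from 1650 to 3640 FPKM in Control, 736 to 1780 in PZH, 720 to 1280 in Model and 610 to 1540 in Model + PZH mice. Summed squamous epithelium markers were at 225 and 195 FPKM in Control mice 17 and 50 and at 0.824 to 1.65 in the other 3 Control mice. They were at 0.326 to 1.43 FPKM in PZH, 10.8 to 34.9 in Model and 2.44 to 56.6 in Model + PZH mice. The pieces of colon were thus not alike in these markers, both within Control and between groups. In such bulk tissue, fewer cells of a type and less RNA per cell cannot be told apart. The part of these shifts in the results was not tested. With median of ratios scaling, the Model group shifted by 0.11 on the log2 scale against Control, and with this scaling Mycl and Cdk4 were still higher in the Model group, by 1.08 and 0.73.

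Myc lies on chromosome 15 (GRCm38, 61985391 to 61990374, plus strand). Its summed level was 9.86, 13.9, 19.9, 20.6 and 9.03 FPKM in Control mice 17, 37, 41, 48 and 50. In PZH mice 8, 14, 27, 46 and 53 it was 7.66, 9.27, 12.5, 9.31 and 13.1 FPKM. Model mice 23, 30, 33, 44 and 52 had 19.8, 21, 19.7, 25.3 and 29.2 FPKM. The Model values lay above most Control values, although Control mice 41 and 48 reached the same height. Model + PZH mice 2, 13, 15, 35 and 36 had 14.7, 17.5, 17.3, 23.9 and 12.1 FPKM, and only mouse 35 of these was within the range of the Model group. Group means followed the order Model (23 ± 4.17, SD, n = 5), Model + PZH (17.1 ± 4.40), Control (14.7 ± 5.42) and PZH (10.4 ± 2.34). No neighbours in this order were separated without overlap.

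Mycl, which encodes L-Myc, a relative of Myc that also pairs with Max, lies on chromosome 4 (122995652 to 123002485, plus strand). It had 6.61, 8.11, 4.66, 8.33 and 7.26 FPKM in Control mice 17, 37, 41, 48 and 50 and 4.04 to 7.95 FPKM in PZH mice. In Model mice 23, 30, 33, 44 and 52 it had 15, 12, 10.4, 34.2 and 21.2 FPKM. Every Model mouse was above every Control and PZH mouse. The Model + PZH mice fell into a low set and 1 high mouse, since mice 2, 13, 15 and 36 had 8.08, 6.70, 7.56 and 8.97 FPKM and mouse 35 had 29.9 FPKM. Mycl-202 carried 77.9% of the Mycl level as the mean of the 20 mice (median 80.6%, highest 91.7%), and was the most abundant Mycl transcript in all but PZH mouse 14, where it carried 21.1%.

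Max, the common partner of all the Myc and Mxd proteins, lies on chromosome 12 (76937269 to 76962201, minus strand) and showed 2 levels. In 12 mice it was between 8.0 and 18.4 FPKM, and in the other 8 it was between 37.3 and 65.6 FPKM, with no mouse between. The high level was found in Control mouse 48 (46.7 FPKM), in PZH mice 46 and 53 (45.2 and 52.2 FPKM), in Model mouse 52 (37.3 FPKM) and in Model + PZH mice 2, 13, 15 and 35 (47.2, 65.6, 40.7 and 43.9 FPKM). The mice with the high level thus came from all 4 groups. Among the annotated transcripts, the difference was carried by 2 coding ones. Max-202 was at 27.1 FPKM or more in 7 of these 8 mice and at 10.5 FPKM in Control mouse 48, where Max-201 was at 31.8 FPKM instead. A short transcript on the same strand, Gm47218, overlaps Max and averaged 1.77 FPKM. Assembled transcripts without a gene name could not be assigned to Max, and their part in these levels was not tested.

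The antagonists of Myc were expressed at very different levels. Mxd1 (chromosome 6, 86647042 to 86669161, minus strand) was the most abundant of the 10 genes. It had 169, 79.2, 145, 195 and 114 FPKM in Control mice 17, 37, 41, 48 and 50, and 111 to 131 FPKM in PZH mice. Model mice 23, 30, 33, 44 and 52 had 71.5, 123, 88.2, 59.5 and 71.0 FPKM. Control mouse 37 and Model mouse 30 each lay inside the other group's range. These mice also differed from their groups in markers. Summed B cell markers were at 72.7 FPKM in Control mouse 37 beside 5.53 to 18 in the other Control mice, and its T cell (17.1 FPKM) and proliferation sums (294 FPKM) were the highest of Control. Model mouse 30 had the highest B cell (74.4 FPKM) and the lowest proliferation (245 FPKM) and neutrophil sums (87 FPKM) of the Model group. The part of these markers in the Mxd1 levels was not tested. Model + PZH mice 2, 13, 15, 35 and 36 had 120, 160, 110, 78.9 and 153 FPKM, and 4 of these were above every Model mouse except mouse 30. Mxi1 (chromosome 19, 53310518 to 53375810, plus strand) varied least of the 10 genes between mice within Control, Model and Model + PZH. It was at 11 to 13.3 FPKM in Control, 13.7 to 16.4 in PZH, 12.4 to 16.1 in Model and 14.7 to 18.7 in Model + PZH mice. The Control mice were below all PZH and all Model + PZH mice.

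**Figure D1:**
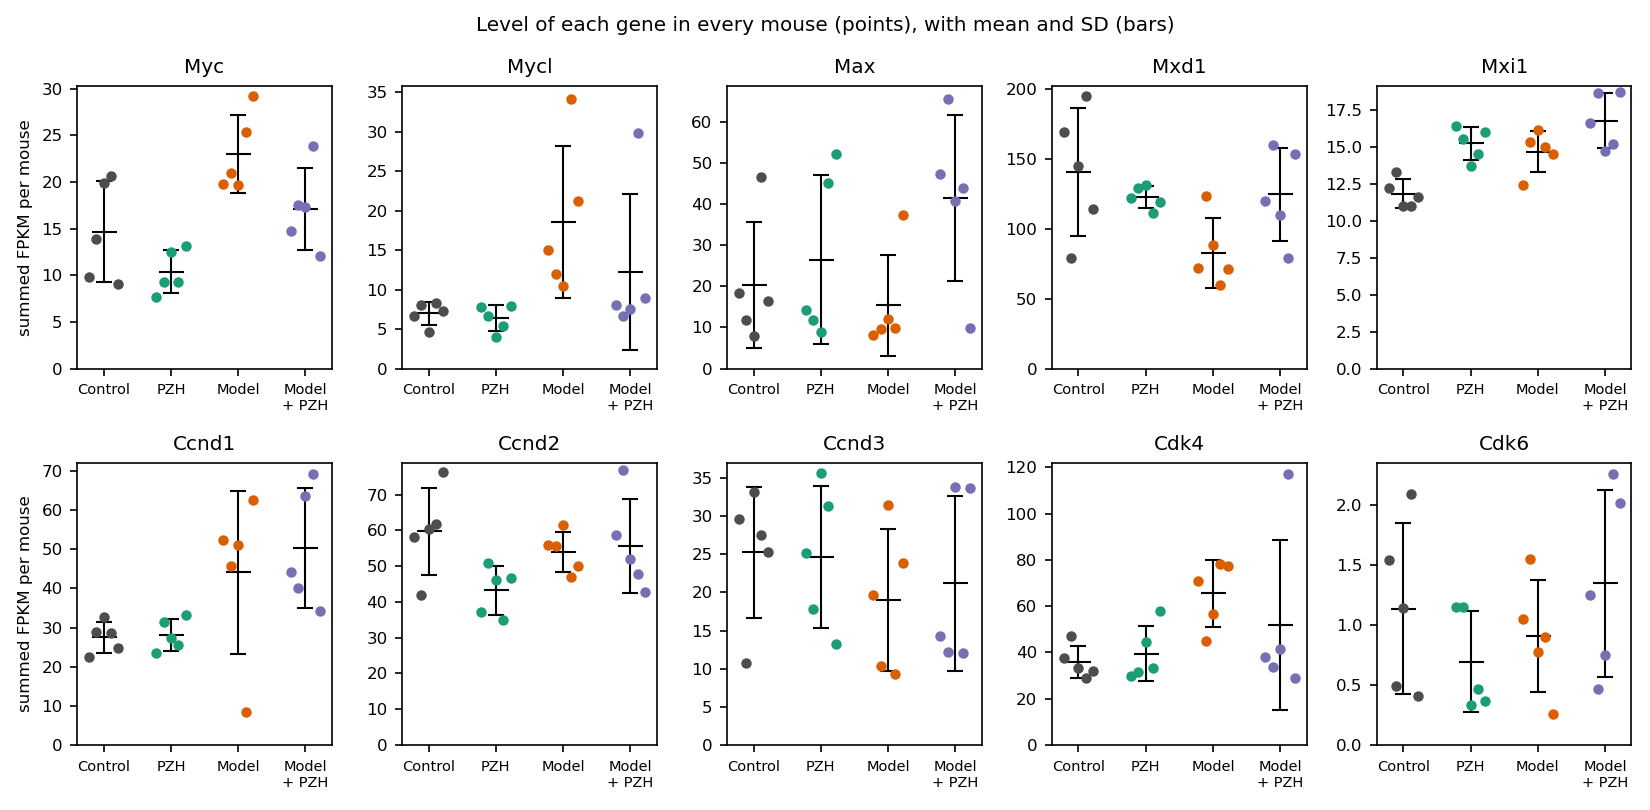
Summed FPKM (vertical axes, each from 0) of the 10 genes in every mouse, 1 panel per gene and 1 column per group, with points for mice and bars for the mean ± SD (n = 5). Mycl in the Model group (10.4 to 34.2 FPKM) lies above all Control mice, Max falls into a low and a high level, and Model mouse 44 stands below the other mice for Ccnd1 (8.52 FPKM).

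Among the D-type cyclins, Ccnd1 (chromosome 7, 144929931 to 144939925, minus strand) had 22.4, 28.8, 32.8, 28.6 and 24.7 FPKM in Control mice 17, 37, 41, 48 and 50. PZH mice lay in the same range, at 23.4, 31.5, 27.4, 25.5 and 33.2 FPKM. Model mice 23, 30, 33 and 52 had 52.4, 45.8, 51 and 62.6 FPKM, but mouse 44 had 8.52 FPKM, the lowest value of the 20 mice. Model + PZH mice 2, 13, 15, 35 and 36 had 44.3, 40.0, 63.6, 69.1 and 34.3 FPKM, and each of them was above every Control and PZH mouse. LTO1 overlaps Ccnd1 over 1771 bases on the opposite strand and had 6.20 to 9.54 FPKM in Model mice. Whether reads were assigned by strand is not given in the sources used here.

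Ccnd2 (chromosome 6, 127125162 to 127152193, minus strand) was the highest D-type cyclin in Control, with 41.9 to 76.3 FPKM. It had 34.9 to 51.0 FPKM in PZH, 46.9 to 61.5 in Model and 42.9 to 76.9 in Model + PZH mice, and all 4 ranges overlapped. Ccnd3 (chromosome 17, 47505051 to 47599691, plus strand) was spread from 9.37 to 35.7 FPKM, and each group held both low and high mice. Its 17 annotated transcripts changed places from mouse to mouse, and assembled transcripts could not be assigned to Ccnd3 either. Ccnd3-205 was the most abundant in 14 mice, Ccnd3-215 in 5 and Ccnd3-202 in 1. Added together, the D-type cyclins came to 112 ± 18.5 FPKM in Control (SD, n = 5), 95.9 ± 8.94 in PZH, 117 ± 31.5 in Model and 127 ± 14.6 in Model + PZH mice. The share of Ccnd1 in this sum was 25.1 ± 6.36% in Control, 29.4 ± 4.15% in PZH, 35.2 ± 12.9% in Model and 39.2 ± 9.44% in Model + PZH mice. In Model mouse 44 the share of Ccnd1 was 13.1% and that of Ccnd2 was 72.4%.

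**Figure D2:**
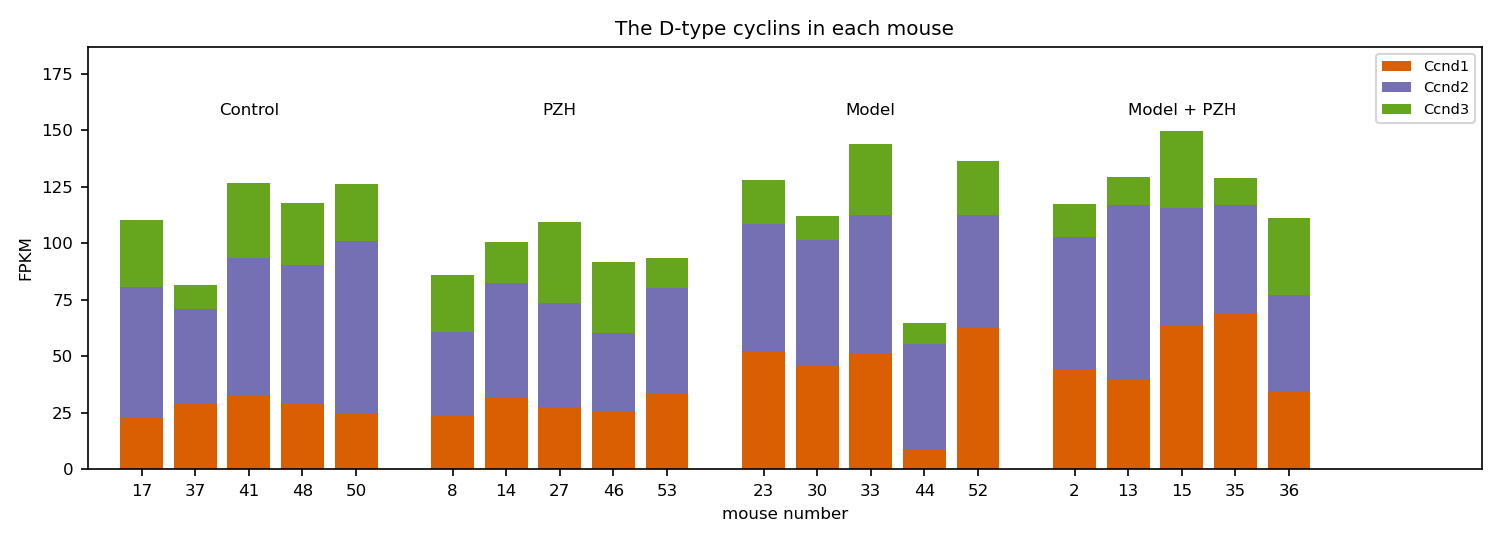
Stacked FPKM of Ccnd1, Ccnd2 and Ccnd3 (vertical axis) in each of the 20 mice (horizontal axis, by mouse number and group). Ccnd1 made up 30.9 to 53.6% of the sum in Model + PZH mice and 19.5 to 35.4% in Control mice, and Model mouse 44 had the lowest sum (64.8 FPKM).

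Of the kinases, Cdk4 (chromosome 10, 127063534 to 127067920, plus strand) had 37.6, 46.9, 33.4, 29.1 and 32.2 FPKM in Control mice 17, 37, 41, 48 and 50, and 29.9 to 57.9 FPKM in PZH mice. Model mice 23, 30, 33, 44 and 52 had 70.9, 45.0, 56.6, 78.2 and 77.4 FPKM. All of these but mouse 30 were above every Control mouse. In Model + PZH mice 2, 13, 15 and 36 the level was 38.0, 33.5, 41.7 and 29.1 FPKM, whereas mouse 35 had 117 FPKM, the highest value of all. Tspan31 overlaps Cdk4 over 641 bases on the opposite strand. It was at 36 to 45.9 FPKM in Control and 39.7 to 48.1 FPKM in Model mice, with a log2 fold change of 0.09 (adjusted P = 0.568). As the mean of the 20 mice, 47.8% of the Cdk4 level belonged to the coding transcript Cdk4-201, while Cdk4-209 and Cdk4-207, annotated as retained introns, held 23.5% and 18.1%. Cdk6 (chromosome 5, 3341485 to 3531008, plus strand) was at 0.256 to 2.25 FPKM in all mice, and Cdk4 exceeded it 13.9-fold or more in each mouse. With so few fragments, only large changes of Cdk6 would be detectable.

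Mycl and Cdk4 are the members that passed the test between Model and Control, and their promoter windows are shown with their E-boxes. The RefSeq promoter table for GRCm38.p6 (250 bases before to 50 after a start) held 10 windows for 7 of the 10 genes. Myc, Ccnd1 and Ccnd2 had no entry. The 250 bases before the RefSeq start of Cdk4 (chr10:127063285-127063534, plus strand) and of Mycl (chr4:122995681-122995930, plus strand) are given 5′ to 3′. The Mycl window lies inside the gene span used for the sums, which begins at 122995652. It therefore precedes another start, and the bases before the start used for the sums were not read. Capitals mark the E-box CACGTG and the TCF/LEF motif CTTTGAT, the latter read here on the opposite strand.
Cdk4: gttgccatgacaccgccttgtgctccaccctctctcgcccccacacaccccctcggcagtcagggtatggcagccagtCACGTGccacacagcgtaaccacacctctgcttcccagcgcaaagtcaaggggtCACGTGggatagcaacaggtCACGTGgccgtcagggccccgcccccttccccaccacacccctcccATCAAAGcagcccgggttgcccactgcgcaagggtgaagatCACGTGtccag
Mycl: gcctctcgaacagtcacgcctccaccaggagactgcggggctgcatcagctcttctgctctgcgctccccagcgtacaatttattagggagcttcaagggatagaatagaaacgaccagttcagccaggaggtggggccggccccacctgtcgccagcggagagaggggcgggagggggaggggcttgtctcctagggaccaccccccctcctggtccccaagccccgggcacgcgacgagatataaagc
The Cdk4 window held CACGTG at 4 positions, starting -172, -118, -98 and -11 bases from the annotated start, and 1 CTTTGAT at -52. The Mycl window held neither. Of all 32851 promoter windows, 7.15% held CACGTG at least once (a palindrome, so that both strands read alike), 8 windows (0.0244%) held it 4 times or more, and 3.73% held CTTTGAT on either strand. Among the other members, Max had 1 CACGTG at -3 and Cdk6 had 1 at -220. The windows of Mxd1, Mxi1 and Ccnd3 held no match to these motifs, and the E2F motifs TTTGGCGC and TTTCCCGC, found in 0.514% and 1.07% of all windows on either strand, were in none of the 10 windows. A match describes the letters only and is not a measurement of binding.

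The comparison of Model with Control asks what AOM and DSS change in untreated mice. Mycl and Cdk4 rose, and no member fell at an adjusted P under 0.05. Mycl was 2.28-fold higher and Cdk4 1.80-fold higher on the scale of FPKM + 1. Of the 10 members, 2 were called, both higher, which is no more than the 23.6% of 15812 tested genes that were called in either direction and close to the 16.4% that were called higher. In limma, the log2 fold change of Mycl was 1.19 (SE 0.29, adjusted P = 0.0132), and its groups did not overlap, as was the case for 18.4% of all genes. For Cdk4 it was 0.84 (SE 0.18, adjusted P = 0.00649). In all 5 Model mice Mycl was above every Control mouse, and for Cdk4 this held in 4 of 5. Both calls were kept when any single mouse was left out, with adjusted P between 0.00956 and 0.0367 for Mycl and between 0.00273 and 0.0209 for Cdk4. Without both Control mice with squamous markers (17 and 50), a choice made after the values were seen, Mycl had the same log2 fold change of 1.19 but an adjusted P of 0.0552, and Cdk4 stayed called (0.83, adjusted P = 0.0344).

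More than a 2-fold change with an unadjusted P under 0.05 was found for 1 of the 10 members (Mycl), beside 7.71% of all genes. The 3 further members with an unadjusted P under 0.05 in this comparison did not pass the adjustment. The log2 fold change was 0.67 for Myc (SE 0.23, adjusted P = 0.0584), -0.73 for Mxd1 (SE 0.26, adjusted P = 0.0619) and 0.28 for Mxi1 (SE 0.10, adjusted P = 0.0675). An unadjusted P under 0.05 was found for 36% of all genes and for 5 of the 10 members. With all 20 mice in one model, these 3 genes passed the threshold, with an adjusted P of 0.0307 for Myc, 0.0242 for Mxd1 and 0.0316 for Mxi1. With median of ratios scaling, Mxd1 passed in limma (-0.85, adjusted P = 0.0412), but Myc (0.56, adjusted P = 0.102) and Mxi1 (0.17, adjusted P = 0.274) did not. Each of the 3 passed without some single mice but not without most. The adjusted P then reached 0.131 for Myc, 0.143 for Mxd1 and 0.145 for Mxi1. Myc had an adjusted P of 0.0354 without Control mouse 41 and 0.033 without Control mouse 48. Mxd1 had one of 0.016 without Control mouse 37 and 0.0288 without Model mouse 30, the mice set apart by their markers, and Mxi1 one of 0.0474 without Control mouse 37 and 0.0435 without Model mouse 23. Without both Control mice 17 and 50, the log2 fold change of Myc was 0.33 (adjusted P = 0.248). Ccnd1 had a log2 fold change of 0.43 (SE 0.45, adjusted P = 0.539). This value rested on Model mouse 44: without it, Ccnd1 was 0.93 higher on the log2 scale (adjusted P = 0.00223), and the other 4 Model mice were all above every Control mouse. Max, Ccnd2, Ccnd3 and Cdk6 had log2 fold changes between -0.44 and -0.12, and each 95% interval included 0.

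Model + PZH against Model asks what Pien Tze Huang changes in mice with AOM and DSS. No member passed an adjusted P under 0.05, as was true of nearly all genes: 1 of 15888 (0.00629%) was called by limma. An unadjusted P under 0.05 was found for 3 of the 10 members, beside 11.7% of all genes. Myc was lower in Model + PZH mice (log2 fold change -0.42, SE 0.18, adjusted P = 0.404), and 4 of 5 of these mice were below every Model mouse. Mxd1 was higher (0.58, SE 0.23, adjusted P = 0.384), as was Max (1.40, SE 0.51, adjusted P = 0.367), the latter with 4 of 5 Model + PZH mice and 1 of 5 Model mice at the high level. No member had groups without overlap, which 1.08% of all genes had. The study set a limit of more than a 2-fold change with P under 0.05 before adjustment, for single transcripts in another test. Applied here to summed genes in limma, that limit was passed by 1 of the 10 members (Max), beside 2.4% of all genes.

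Mycl and Cdk4, called in the Model group, were both lower in 4 of 5 Model + PZH mice than in any Model mouse, but mouse 35 was high for both. Both genes were singled out by their high level in these same Model mice, which favours a lower level in any group set against them. The share of all genes with 4 of 5 mice below is not given here. Mouse 35 also stood apart in markers. Its neutrophil sum was 251 FPKM, beside 2.86 to 82.5 in the other mice of its group and 87 to 494 in Model mice. Its smooth muscle sum (610 FPKM) was the lowest and its macrophage and monocyte sum (502 FPKM) the highest of the group, and its proliferation sum (385 FPKM) was the second highest. Its colon sum (1720 FPKM) was the lowest of all mice, beside 2820 to 4310 in the rest of its group. Its squamous epithelium sum was 56.6 FPKM, beside 2.44 to 9.02 in the rest of its group. Whether these markers had a part in its Cdk4 and Mycl levels was not tested. With that mouse, the log2 difference was -0.67 (SE 0.42, adjusted P = 0.545) for Mycl and -0.51 (SE 0.34, adjusted P = 0.571) for Cdk4. Without mouse 35, Cdk4 was 0.85 lower on the log2 scale and passed the threshold (log2 fold change -0.85, adjusted P = 0.0314), whereas Mycl did not (-1.03, adjusted P = 0.0811). Leaving out Model mouse 44 together with mouse 35, a choice made after the values were seen, gave -0.78 for Cdk4 (adjusted P = 0.0778) and -0.79 for Mycl (adjusted P = 0.102). Ccnd1 differed by 0.38 (SE 0.47, 95% interval -0.66 to 1.43), and by -0.12 without Model mouse 44. Its interval spans a fall as well as a rise, so that no direction can be given. Ccnd2 differed by 0.02 (95% interval -0.32 to 0.36), the smallest difference of the 10 genes.

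**Figure D3:**
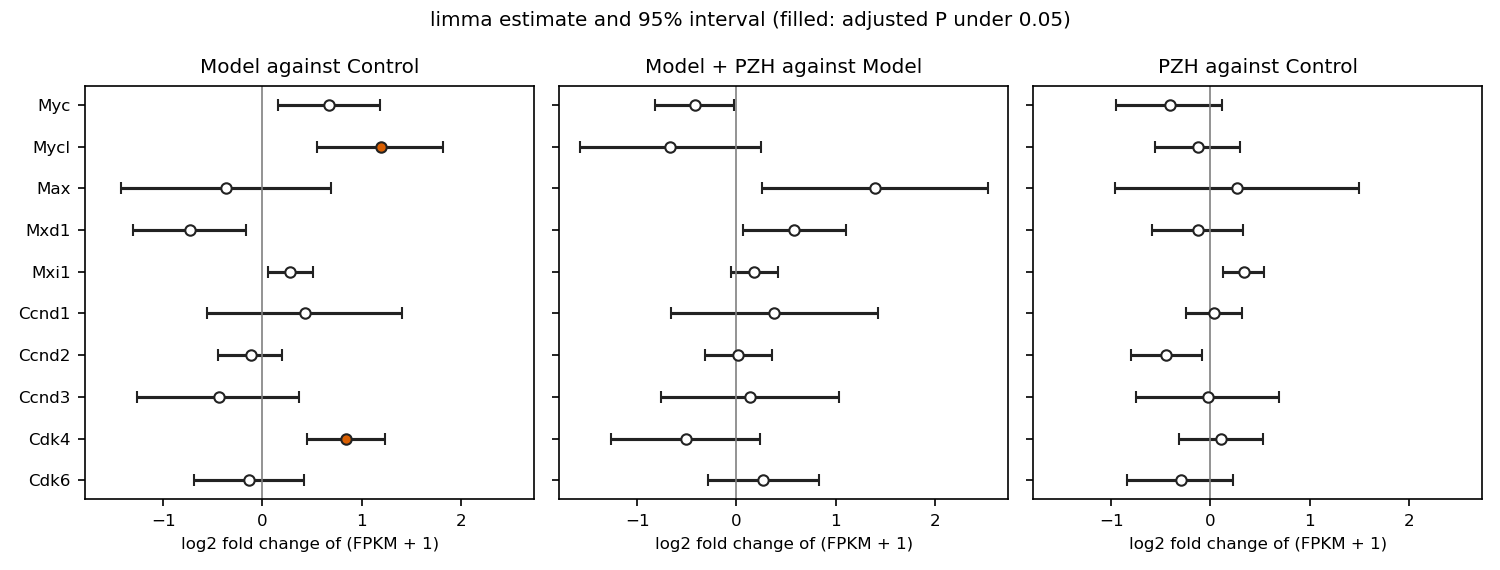
Log2 fold changes of FPKM + 1 (horizontal axis) of the 10 genes from limma in 3 comparisons, with 95% intervals; filled points have an adjusted P under 0.05. Filled points are seen for Mycl (1.19) and Cdk4 (0.84) in Model against Control and for no gene in the other panels.

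PZH against Control asks what Pien Tze Huang changes in mice without AOM and DSS. No member was called, beside 1 of 15506 genes (0.00645%). Mxi1 had a log2 fold change of 0.34 (SE 0.09, adjusted P = 0.437), and all 5 PZH mice were above all 5 Control mice, as was so, in either direction, for 1.81% of all genes. Ccnd2 was lower in PZH mice (-0.45, SE 0.16, adjusted P = 0.533), with 2 of 5 below every Control mouse. These 2 members with an unadjusted P under 0.05 stand beside 8.84% of all genes. Myc was at -0.41 (95% interval -0.95 to 0.12). Ccnd1 was at 0.04 (95% interval -0.25 to 0.32), so that its mean on this scale differed by less than its spread between mice.

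The remaining comparisons asked how far Model + PZH mice differed from mice without AOM and DSS, and whether the change brought by AOM and DSS differed with Pien Tze Huang. Against PZH mice, 2.42% of 15636 genes were called and no member was. Ccnd1 had a log2 fold change of 0.77 (SE 0.19, adjusted P = 0.0642) without overlap of the groups, found in 7.37% of all genes, and Myc one of 0.66 (SE 0.19, adjusted P = 0.0922). These were the 2 members with an unadjusted P under 0.05, which 20.9% of all genes had. Against Control mice, 2.42% of 15616 genes were called and again no member. Ccnd1 (0.81, SE 0.20, adjusted P = 0.0589) and Mxi1 (0.46, SE 0.11, adjusted P = 0.0601) were the 2 members without overlap, beside 6.76% of all genes, and also those with an unadjusted P under 0.05, beside 20.9% of all genes. Without Model + PZH mouse 36, Ccnd1 passed the threshold both against PZH (log2 fold change 0.90, adjusted P = 0.0426) and against Control (0.93, adjusted P = 0.0423). The 2 comparisons share the Model + PZH mice. In the test of the interaction, 2 of 16936 genes (0.0118%) were called and no member. Mxd1 was the 1 member with an unadjusted P under 0.05 (difference of log2 fold changes 0.71, SE 0.33, adjusted P = 0.464), which 10.3% of all genes had.

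Single transcripts of Myc and Ccnd1 were compared as well. Ccnd1-201, a coding transcript of 3740 bases, carried 98.1% of the Ccnd1 level as the mean of the 20 mice. It had 8.04 FPKM in Model mouse 44, where the retained-intron transcripts Ccnd1-202 and Ccnd1-203 did not stand higher in its place, their highest values in any Model mouse being 0.453 and 0.227 FPKM. The low Ccnd1 level of that mouse was therefore not taken up by another annotated Ccnd1 transcript. Assembled transcripts, which carry no gene name in the files, could not be assigned to Ccnd1. In each mouse, 3 to 11 of these were at 20 FPKM or more there and under 0.5 FPKM in all other mice, with a count of 11 in Model mouse 44. In exact two-sided permutation tests of the share of Ccnd1-201, the adjusted P was 0.968 in Model against Control and 0.81 in both other comparisons, over 6 share tests in all.

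Myc was spread over several coding transcripts. As the mean of the 20 mice, Myc-201 carried 41.2%, Myc-206 32.6% and Myc-204 14.9% of its level. Myc-201 was at 3.6 to 8.48 FPKM in Control, 2.61 to 5.45 in PZH, 8.76 to 13.4 in Model and 4.25 to 11 in Model + PZH mice. The Model mice were therefore all above the Control mice for this transcript, which was not so for the summed gene. Groups without overlap were found for 9.34% of all single transcripts tested. Its log2 fold change was 0.81 in Model against Control (SE 0.23, adjusted P = 0.0659) and -0.52 in Model + PZH against Model (SE 0.22, adjusted P = 0.549). Across all single transcripts, 6.94% of 40464 were called in Model against Control, and no transcript of Myc or Ccnd1 was. Ccnd1-201 passed when Model mouse 44 was left out, and Myc-201 passed when Control mouse 41 was left out. Myc-201 made up 39.5 ± 2.19% of Myc in Control and 45.9 ± 3.98% in Model mice (SD, n = 5). The difference of 6.34 percentage points had an exact two-sided permutation P of 0.0159 and an adjusted P of 0.0952 over 6 tests. Without Model mouse 44 the difference was 7.75 points with an adjusted P of 0.0476 (exact permutation). When each mouse was left out in turn, the difference ran from 5.04 to 7.75 points and the adjusted P from 0.0476 to 0.238.

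**Figure D4:**
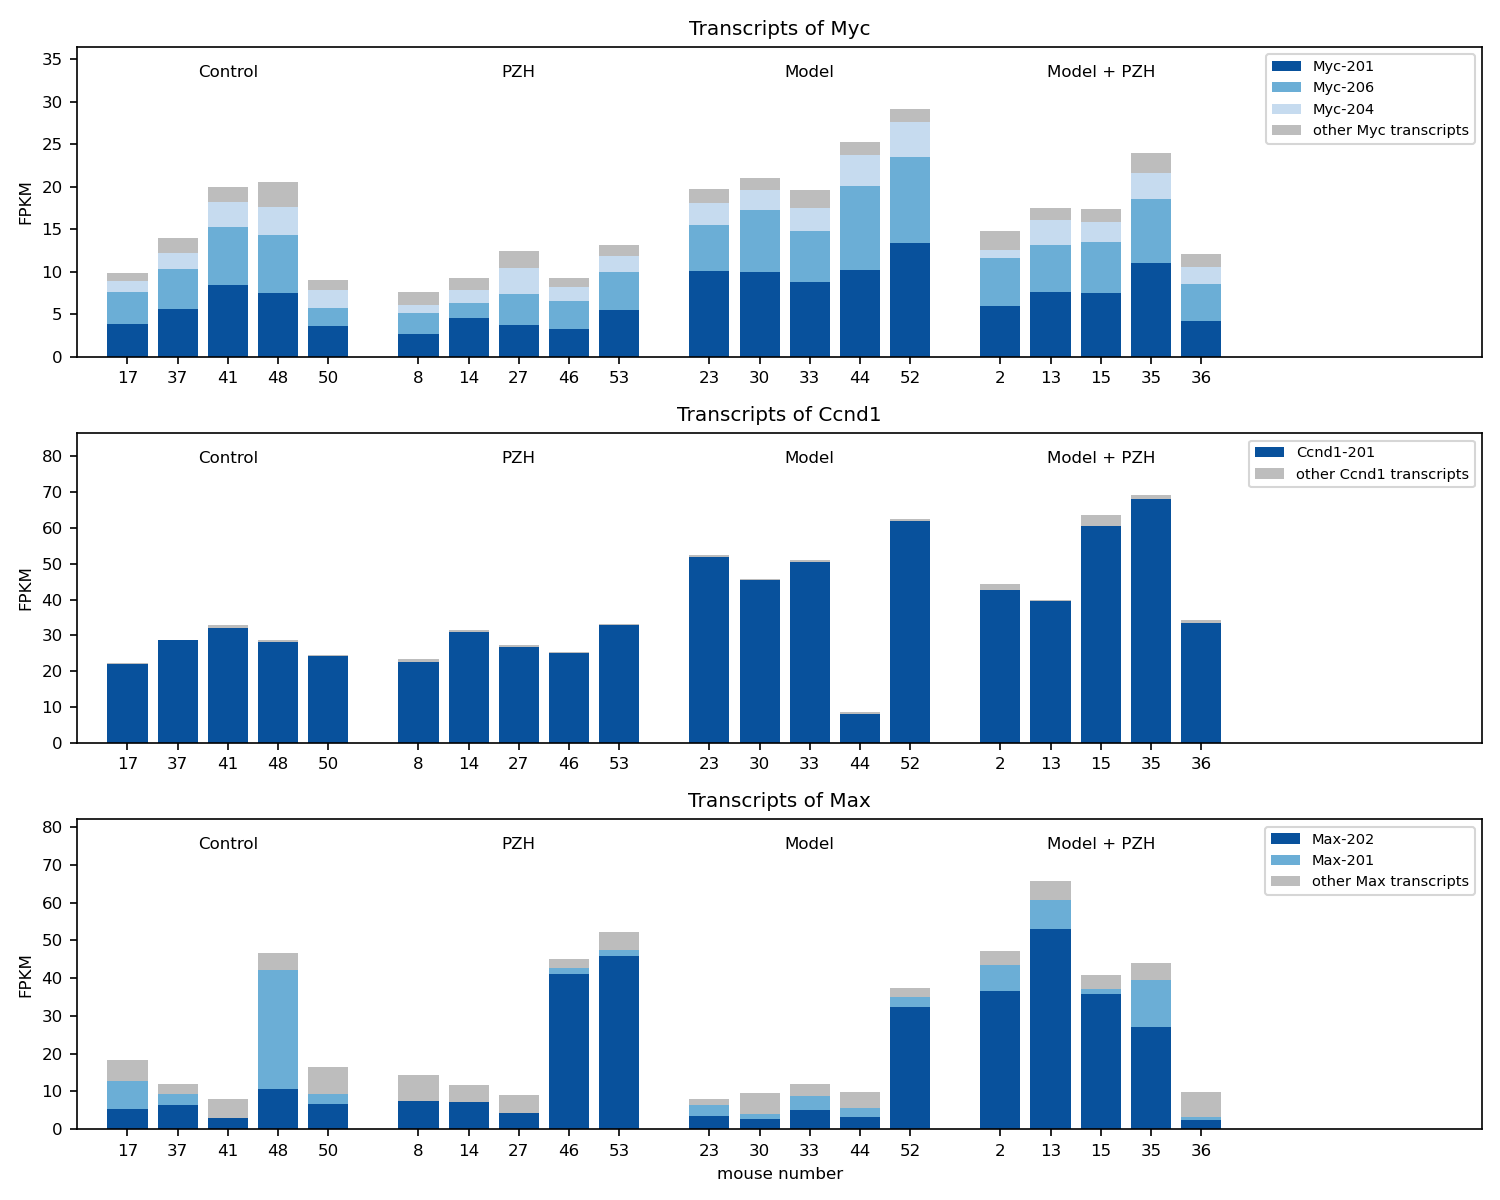
FPKM of the transcripts of Myc, Ccnd1 and Max (stacked bars, vertical axes) in each mouse (horizontal axis, by mouse number and group). Myc-201 is highest in the Model group (8.76 to 13.4 FPKM), Ccnd1 consists almost wholly of Ccnd1-201, and the mice with high Max owe it to Max-202 or, in Control mouse 48, to Max-201 (31.8 FPKM).

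Whether partners changed to a different extent was tested on the log2 ratio of their levels within each mouse, in 15 exact permutation tests. These were two-sided, and with 5 mice against 5 their P cannot be below 0.00794. None had an adjusted P under 0.05, and 5 had an unadjusted P under 0.05. A single test at this floor would not pass the adjustment over 15 tests, so the lack of calls does not show equal change. The ratio of Myc to Mxd1, its antagonist, was 0.111 ± 0.0466 in Control, 0.0848 ± 0.0191 in PZH, 0.301 ± 0.113 in Model and 0.154 ± 0.0878 in Model + PZH mice (SD, n = 5). It was 1.40 higher on the log2 scale in Model than in Control (permutation P = 0.0159, adjusted P = 0.119), with 4 of 5 Model mice above every Control mouse. In Model + PZH mice it was lower than in Model mice by -1.01 on that scale (permutation P = 0.0476, adjusted P = 0.143), and 4 of 5 mice were below every Model mouse. The ratio of Myc to Max differed by -1.82 in Model + PZH against Model (permutation P = 0.0159, adjusted P = 0.119), following the high Max level. Cdk4 to Cdk6 differed by 0.98 in Model against Control (permutation P = 0.0476, adjusted P = 0.143), and Ccnd1 to Ccnd2 by 0.484 in PZH against Control (permutation P = 0.0397, adjusted P = 0.143). Ccnd1 to Ccnd2 in Model against Control differed by 0.551 (permutation P = 0.294), with Model mouse 44 below and the other 4 Model mice above every Control mouse.

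The other genes of the pathway were read from 6 lists. In Model against Control, 13 of their 59 tested genes (22%) were called, 12 higher and 1 lower, which is close to the 23.6% of all genes called, so that the lists together did not stand out by their number of calls. The counts per list are small and are given as a description. Here 3 of 8 further genes of the Myc, Max and Mlx network were called. Mycn, which encodes N-Myc, was higher (1.08 ± 0.401 against 2.75 ± 0.920 FPKM, log2 fold change 0.84, adjusted P = 0.0109), as was the Max-binding repressor Mnt (6.14 ± 1.15 against 10.3 ± 1.31 FPKM, 0.67, adjusted P = 0.00762). Mlxipl, a glucose-responsive factor, was lower (5.95 ± 1.29 against 3.17 ± 0.580 FPKM, -0.73, adjusted P = 0.00926). Of 7 inhibitors of cyclin-dependent kinases, 2 rose and none fell. Cdkn2a, which encodes the Cdk4 and Cdk6 inhibitor p16 and the p19Arf protein, went from 0.0763 ± 0.0495 to 8.89 ± 5.83 FPKM (log2 fold change 2.98, adjusted P = 0.000304). It passed the filter for low genes by the Model mice alone, and in PZH against Control it was not tested. That it was tested at all thus depended on its high level in Model mice. Cdkn1c went from 4.10 ± 1.60 to 17.2 ± 6.19 FPKM (1.82, adjusted P = 0.00157). The values after ± are SD over 5 mice.

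Downstream of the cyclins, 2 of 13 Rb and E2F genes were higher in Model than in Control, namely E2f1 (log2 fold change 0.67, adjusted P = 0.0331) and its partner Tfdp1 (0.63, adjusted P = 0.00133). Of 5 genes for G1/S cyclins and their partners 1 was higher, Ccne1 (cyclin E1, 0.87, adjusted P = 0.00686), and of 6 genes for the turnover of the Myc protein none was called by limma, 3 having an unadjusted P under 0.05, as 36% of all genes had. Of 20 genes known as Myc targets 5 were higher, beside 16.4% of all genes, and none was lower, among them Wdr43 (0.63, adjusted P = 0.00619), Cad (0.57, adjusted P = 0.0347) and Rrp9 (0.48, adjusted P = 0.0350). The median log2 fold change of the 20 was 0.46, beside 0.09 over all genes. In Model + PZH against Model none of the 59 genes of the 6 lists was called by limma, 5 having an unadjusted P under 0.05, beside 11.7% of all genes, and the median of the 20 targets was -0.08, beside -0.04 over all genes. Medians for the 10 members were 0.08 in Model against Control and 0.16 in Model + PZH against Model.

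The levels of the members were also set beside the summed FPKM of 12 proliferation markers over the 20 mice, with log2 values. Each of the 10 relations had a two-sided permutation P from 100000 resamples, adjusted over the 10. Mice were permuted across groups, so that these P values also carry differences between groups. Marker sums ranged from 155 to 294 in Control, 198 to 245 in PZH, 245 to 377 in Model and 219 to 404 in Model + PZH mice. Mxd1 went down as the markers went up, with a Pearson correlation of -0.82 (permutation P = 3e-05, adjusted P = 0.0003) and a Spearman correlation of -0.79 (permutation P = 0.0001, adjusted P = 0.001). The Pearson value was -0.88 without the 2 mice farthest from the median marker sum (Model + PZH mice 15 and 35) and -0.86 for the deviations from the group means. The direction was the same in 3 of 4 groups. Cdk4 went up with the markers in each of the 4 groups, with a Pearson correlation of 0.74 (permutation P = 0.00025, adjusted P = 0.00125) and a Spearman correlation of 0.70 (permutation P = 0.00101, adjusted P = 0.00337). Its Pearson value was 0.79 without the 2 mice and 0.63 for the deviations. Mycl followed with 0.67 (permutation P = 0.00108, adjusted P = 0.0036) and a Spearman correlation of 0.70 (permutation P = 0.00084, adjusted P = 0.00337). Its Pearson value was 0.71 without the 2 mice and 0.39 for the deviations. For Myc, 0.49 over all mice (permutation P = 0.02801, adjusted P = 0.07002; Spearman 0.44, permutation P = 0.05439, adjusted P = 0.10878) was 0.45 without the 2 mice and 0.06 for the deviations. Ccnd1 had a Pearson correlation of 0.39 (permutation P = 0.08766, adjusted P = 0.17532) and a Spearman correlation of 0.60 (permutation P = 0.00616, adjusted P = 0.0154), and its Pearson value was 0.18 without the 2 mice and 0.15 for the deviations. The other 5 members (Max, Mxi1, Ccnd2, Ccnd3 and Cdk6) had Pearson correlations between -0.30 and 0.25 and Spearman correlations between -0.33 and 0.29, with adjusted permutation P of 0.259 or more. The points share the same normalization and similar depths, and the share of dividing cells in each piece of tissue was not measured.

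**Figure D5:**
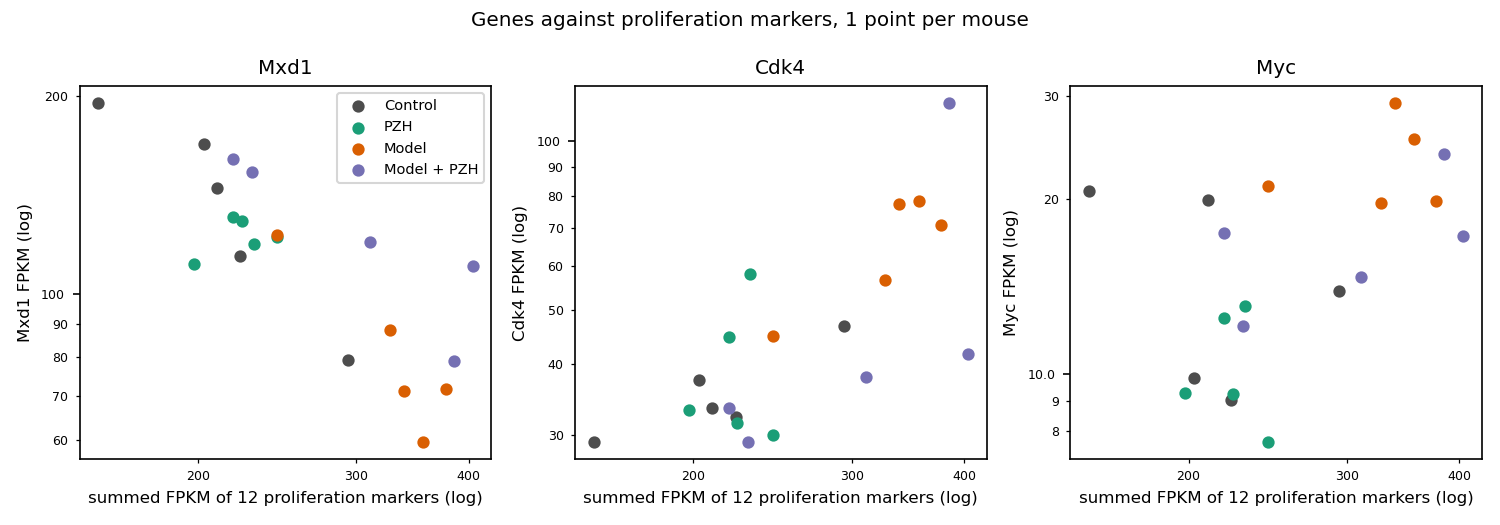
FPKM of Mxd1, Cdk4 and Myc (vertical log axes) against the summed FPKM of 12 proliferation markers (horizontal log axis), 1 point per mouse coloured by group. Mxd1 falls with the markers (correlation -0.82) and Cdk4 rises (0.74). Myc has a correlation of 0.49 over all mice and of 0.06 for the deviations from the group means.

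Genes whose pattern was most like that of Myc or Ccnd1 were ranked by Pearson correlation of log2 values over 20 mice, among 8952 genes with a mean of at least 5 FPKM. For Myc the 5 leading genes were Creld1 (0.89), Tle3 and 9530068E07Rik (both 0.88), and Ythdf1 and Etv5 (both 0.87). Their correlations of deviations from group means were 0.76 to 0.81. Etv5 had the widest range of group means of these, with 5.71 FPKM in Control, 5.53 in PZH, 27.6 in Model and 13 in Model + PZH. For Ccnd1 the 5 leading genes were Mtrex (0.88), Rell1 (0.87), Jchain (0.84), Cdk13 (0.83) and Pik3c2a (0.76). Each of these 5 was lower in Model mouse 44 than in any other mouse, Rell1 for instance at 3.57 FPKM against 10.6 FPKM or more. Without that mouse the correlations were between 0.49 and 0.77, so that the likeness to Ccnd1 rested in part on it.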

How the data were processed

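Total RNA of colon tissue was depleted of ribosomal RNA, and the methods of the study also name a kit for isolating poly(A) mRNA. Each mouse gave 1 sequenced library. Per the methods of the study, reads were checked with FastQC v0.11.5, filtered with NGSQC v2.3.3 and aligned to mm10 with HISAT2 v2.1.0. The authors deposited FPKM per transcript, computed with StringTie v1.3.3b, for 118434 transcripts in each mouse, without counts. Here, the 96032 Ensembl transcripts found in GENCODE M21 (GRCm38) were summed to 32991 genes, while 150 other Ensembl and 22252 assembled transcripts entered no sum, so that fragments given to the latter are lost to their genes. log2(FPKM + 1) values were compared with limma 3.58.1 (R 4.3.3, intensity trend, mice of the compared groups, no covariates) for genes with at least 0.5 FPKM in at least 5 mice of the fit, with Benjamini-Hochberg adjustment over all genes tested. Fold changes on this scale understate those of low genes. Ratios and shares per mouse were compared by exact permutation. Depth was read from the steps of low FPKM values. Of these, 44 to 49.7% lay within 0.2% of a whole number of steps, where values spread evenly would give 1.23 to 1.46%. The rest did not, so no counts were recovered, and depths and fragment numbers are estimates. The fits were tested on simulated data.

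The 10 members and all lists were chosen with earlier results of these data known. All members are named. Of other lists, the 3 genes with the largest change among those called were named. Mice are separate animals of 1 group each. The alternatives were a pseudocount of 0.1, no filter, at least 1 FPKM in every mouse, median of ratios scaling, sample quality weights, the criteria of the study, all 20 mice in one model and leaving out each mouse in turn.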

Additional observations from a re-analysis of the deposited data

Results flagged for a closer look

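Within the groups of 5 mice, the highest or lowest mouse was checked by its gap to the nearest neighbour, in FPKM or percent. This gap exceeded 0.71 of the range of the group, the limit for 5 values, in 6 of 48 sets of values. About 2.4 would be expected for independent, normally distributed values. These sets share mice, and Max showed 2 levels, so that no excess over chance can be read from the counts. In Model + PZH mouse 35, Mycl was at 29.9 FPKM beside 6.70 to 8.97 FPKM in the other 4 mice of the group, and Cdk4 was at 117 FPKM beside 29.1 to 41.7 FPKM. Max was at 46.7 FPKM in Control mouse 48 beside 8.0 to 18.4 FPKM, and at 37.3 FPKM in Model mouse 52 beside 8.09 to 12 FPKM. The share of Ccnd1-201 in Ccnd1 was 94.3% in Model mouse 44 beside 98.8 to 99.7%, and 99.6% in Control mouse 37 beside 98.0 to 98.3%. The summed Ccnd1 level of Model mouse 44 (8.52 FPKM) had a gap of 0.69 of the range on the scale of FPKM, under this limit, but of 0.84 on the scale of log2(FPKM + 1) used in the tests. On that scale 6 of the 40 sets of member values passed: besides Ccnd1 these were Mycl and Cdk4 in Model + PZH mouse 35, Max in Model mouse 52 and, at the low end, Max in Model + PZH mouse 36 (9.94 FPKM) and Ccnd3 in Control mouse 37 (10.8 FPKM). Max in Control mouse 48 did not pass there.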

How the results depend on the processing

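Of 1098 recomputed values of single members, 1027 kept their direction and their side of the threshold, 52 changed direction, 18 newly passed an adjusted P under 0.05 and 1 lost it. In Model against Control the number of members called was 2. It was 3 with median of ratios scaling (Mxd1 in addition), 4 with sample quality weights and 5 with all 20 mice in one model. By the criteria of the study it was 1 (beside 7.71% of all genes), and it was 2 to 4 when single mice were left out. Without both Control mice 17 and 50, chosen after seeing the data, it was 1, and there 3 Control mice remain. In Model + PZH against Model it was 0, 1 by the criteria of the study (beside 2.4%) and 0 to 1 without single mice. Against PZH and against Control, it was 0 to 1 in Model + PZH mice without single mice, and 1 against Control with weights or all mice in one model (Mxi1). For PZH against Control and the interaction it stayed 0. For settings other than the main one and the criteria of the study, the share of all genes called is not given here. A higher count of members under such a setting is therefore not read as a result about the members. Transcripts of Ccnd1 and Myc called in Model against Control were 0 to 1. Mxd1 in Model + PZH against PZH was 0.04 with weights and the interaction of Myc was 0.04 with median of ratios scaling, both against the main direction. Without Model mouse 44 and Model + PZH mouse 35, chosen after seeing the data, Ccnd1 was -0.24 in Model + PZH against Model and -0.28 in the interaction. Without both Control mice 17 and 50, Ccnd1 was -0.10 and Ccnd3 0.10 in PZH against Control, Myc was -0.09 and Ccnd2 0.02 in Model + PZH against Control, and the interaction of Myc was 0.33, all against the main direction. No paired analysis was possible because the groups share no mouse number.

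Leaving out single mice, log2 fold changes near 0 changed sign. In Model against Control, Cdk6 ranged from -0.27 to 0.02. In Model + PZH against Model, Ccnd1 ranged from -0.12 to 0.57, Ccnd2 from -0.10 to 0.10 and Ccnd3 from -0.06 to 0.35. In PZH against Control, Max ranged from -0.06 to 0.62, Mxd1 from -0.32 to 0.00, Ccnd1 from -0.03 to 0.10, Ccnd3 from -0.30 to 0.16 and Cdk4 from -0.04 to 0.21. In Model + PZH against PZH, Mxd1 ranged from -0.12 to 0.13 and Cdk4 from -0.11 to 0.38. Against Control, Mxd1 ranged from -0.34 to 0.00 and Cdk4 from 0.00 to 0.49. In the interaction, Myc ranged from -0.14 to 0.13, Ccnd1 from -0.15 to 0.53 and Ccnd3 from -0.03 to 0.44. The log2 ratio of Ccnd1 to Ccnd2 in Model + PZH against Model ranged from -0.09 to 0.58, and that of Ccnd1 to Ccnd3 from -0.05 to 0.57, or from -0.18 to 0.35 in PZH against Control. The share of Ccnd1-201 changed by -0.564 to 0.773 points in Model against Control and by -0.583 to 0.0443 in PZH against Control, and that of Myc-201 by 5.04 to 7.75 and by -4.25 to 0.426. The cause of these shifts was not tested. FPKM without counts leave the counting error of low genes such as Cdk6 unmodelled.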

Other observations

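Among the 58 tested genes of the 6 pathway lists, Model + PZH mice had 2 higher and 0 lower than PZH mice, and 1 higher and 0 lower than Control mice. These are 3.45% and 1.72% of the list genes, near the 2.42% of all genes called in either comparison, and are given as values of single genes. Ccne2, which encodes cyclin E2, was at 3.38 ± 0.693 FPKM in Control, 3.0 ± 0.497 in PZH, 4.97 ± 1.15 in Model and 5.99 ± 0.770 in Model + PZH mice (SD, n = 5). Its log2 fold change in Model + PZH mice was 0.81 against PZH (SE 0.13, adjusted P = 0.0206, limma) and 0.68 against Control (SE 0.15, adjusted P = 0.0446, limma). Gnl3, which encodes the nucleolar protein nucleostemin, was at 24.5 ± 4.51 FPKM in Model + PZH and 14.8 ± 2.66 FPKM in PZH mice (log2 fold change 0.68, SE 0.15, adjusted P = 0.0456, limma). These comparisons share the Model + PZH mice. Whether either gene changed differently with Pien Tze Huang was read from the interaction, in which 0 of the 59 list genes were called by limma and 3 had an unadjusted P under 0.05, beside 10.3% of all genes.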
